A study of Mus musculus with 6 samples.

Results

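Foxn1 and 9 genes tied to the cortical epithelium of the thymus were followed in mature medullary thymic epithelial cells (mTEChi) with an intact or a conditionally deleted p53 gene. The 10 genes (Foxn1, Psmb11, Prss16, Ccl25, Dll4, Cxcl12, Ly75, Cd83, Tbata and Enpep) were taken by symbol from the 51810 genes of the deposited series table as Foxn1, its known targets and cortical markers, and each matched 1 row. The 6 libraries form 2 groups: 3 are labelled P53-WT and titled NoCre (called WT here), and 3 are labelled P53-cKO, for a conditional knockout of p53 (called cKO here). The thymi were taken at 4 to 5 weeks of age, EpCAM-positive cells were enriched, and 75000 medullary cells per library were sorted into lysis buffer for stranded poly(A) RNA sequencing. The labels give no Cre driver, no strain and no word on whether a library stands for 1 animal, so p-values measure the spread between these libraries, which may be technical in part.

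FOXN1 is a forkhead transcription factor that thymic epithelial cells need in order to differentiate, and mice without it (nude mice) lack a functional thymus. In the cortex it drives genes that recruit lymphoid progenitors, commit them to the T lineage and make the peptides on which T cells are positively selected. Mature medullary cells serve negative selection instead, and cortical genes are used in sorting and in single-cell work to tell the cortical lineage from the medullary one.

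Library totals were 45457892 to 50128045 counts, with 45457892 to 48564222 in WT and 46500807 to 50128045 in cKO. Trp53 itself was 14.0-fold lower in cKO (edgeR adjusted p = 5.76e-10), with 4837 to 5351 counts in WT and 361 to 386 counts in cKO, so every library matched its label. All 13 markers of mature medullary epithelium were detected, with Aire at 1306 ± 108 CPM in WT and 1047 ± 195 CPM in cKO and the class II chain Cd74 at 16956 ± 1027 and 16543 ± 150 CPM (SD, n = 3 each), where CPM is counts per 1e6 of the TMM-scaled library total. Aire, which drives tissue-restricted antigens in these cells, lay lower in every cKO library (822 to 1160 CPM) than in any WT library (1201 to 1417 CPM) without passing the test (−0.32 on the log2 scale, SE 0.123, edgeR adjusted p = 0.516). Of the other 12 markers, Fezf2 also lay lower in every cKO library (402 to 408 against 430 to 501 CPM) and Tnfrsf11a higher (321 to 334 against 285 to 304 CPM), with edgeR adjusted p of 0.612 and 0.586, and the rest overlapped. The groups thus did not overlap for 3 of the 13 markers, to be read against 14.4% of all genes tested in either direction. Over all 28543 genes tested, 17 passed an adjusted p of 0.05 (0.0596%), and 203 (0.711%) passed when the replicate number was a term in the fit.

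Promoter windows of 8 of the 10 genes, from RefSeq on GRCm38.p6, were searched on both strands. The motifs were GACGC, the core word reported for FOXN1, and the p53 decamer, the 10-base half-site of p53 response elements. They do not overlap in these windows. Each window runs from 250 bases before the RefSeq start to 50 bases after it. The windows of Foxn1, Psmb11 and Ccl25 are shown because Foxn1 differed most between the genotypes and the others are FOXN1 targets that can be set beside it. The windows follow RefSeq starts, which for Foxn1 and Psmb11 are not the gene ends of the Ensembl models given below. Capitals mark the p53 decamer in Foxn1 and GACGC (or GCGTC, its reverse complement) in the other windows.
Foxn1, chr11:78386559-78386858, minus strand: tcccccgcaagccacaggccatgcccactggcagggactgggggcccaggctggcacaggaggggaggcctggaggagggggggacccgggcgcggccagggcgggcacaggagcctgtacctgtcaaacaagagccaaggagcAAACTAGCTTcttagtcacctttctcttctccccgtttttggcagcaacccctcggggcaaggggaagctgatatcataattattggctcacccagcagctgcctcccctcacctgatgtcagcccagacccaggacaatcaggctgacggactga
Psmb11, chr14:54625060-54625359, plus strand: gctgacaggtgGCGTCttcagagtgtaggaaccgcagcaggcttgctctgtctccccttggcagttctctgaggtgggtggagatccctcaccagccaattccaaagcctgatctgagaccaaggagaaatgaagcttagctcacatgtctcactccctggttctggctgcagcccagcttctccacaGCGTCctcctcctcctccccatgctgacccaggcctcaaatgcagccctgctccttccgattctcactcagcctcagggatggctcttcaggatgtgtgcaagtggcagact
Ccl25, chr8:4324960-4325259, plus strand: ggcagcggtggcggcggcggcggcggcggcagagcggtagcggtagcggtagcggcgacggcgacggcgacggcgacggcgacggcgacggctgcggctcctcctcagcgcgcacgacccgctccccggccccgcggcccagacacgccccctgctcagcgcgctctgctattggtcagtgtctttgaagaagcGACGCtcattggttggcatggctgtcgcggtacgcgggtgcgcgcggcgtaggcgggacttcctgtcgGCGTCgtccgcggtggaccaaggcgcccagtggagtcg
The Foxn1 window held 1 p53 half-site, the decamer AAACTAGCTT 106 bases before the start, and no GACGC. The Psmb11 window held GACGC 239 and 62 bases before the start, and likewise 1 p53 decamer, 212 bases before it and left in lower case above. The Ccl25 window shown held GACGC 56 bases before and 12 bases after the start, whereas the window of its other RefSeq start held none. The Ccl25 window with matches is thus the one shown, and which start these cells use was not tested. Over the 9 windows of these genes, 4 held GACGC (Psmb11, Ccl25, Cxcl12 and Enpep) and 2 held a p53 decamer, against 27.2% and 8.36% of all 32851 mouse promoter windows of the same length. A match describes letters only and is not a measured binding site.

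Foxn1 had the largest difference between the genotypes among the 10 genes. Foxn1 (ENSMUSG00000002057, chromosome 11, 78357577 to 78386558 in mm10, minus strand) had 9663, 8547 and 10101 counts in WT libraries 1 to 3 and 6946, 6222 and 6390 counts in cKO libraries 1 to 3. On the CPM scale these were 209, 181 and 207 in WT and 147, 135 and 128 in cKO. Every cKO library lay below every WT library, so the groups did not overlap, as in 14.4% of all genes tested in either direction and 7.28% lower in cKO. The mean went from 199 ± 15.8 to 137 ± 9.64 CPM (SD, n = 3 each), a log2 fold change of −0.54 (SE 0.0869, 95% interval −0.73 to −0.35), with an edgeR adjusted p of 0.0506, just short of the threshold of 0.05. With the replicate number as a block the log2 fold change was −0.54 (SE 0.0786) and the adjusted p was 0.00242, past the threshold. Within the numbered pairs the log2 difference was −0.51, −0.42 and −0.69, lower in cKO in 3 of 3, which follows from groups that do not overlap. Foxn1 ranked 19 by p among the genes tested. None of its exon bases overlapped an exon of another gene. The medullary markers Aire and Fezf2 were also lower in every cKO library and Tnfrsf11a was higher, as given above, and their part in the Foxn1 difference was not tested. In bulk RNA, fewer cells that transcribe a gene and less RNA per cell cannot be told apart.

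**Figure D1:**
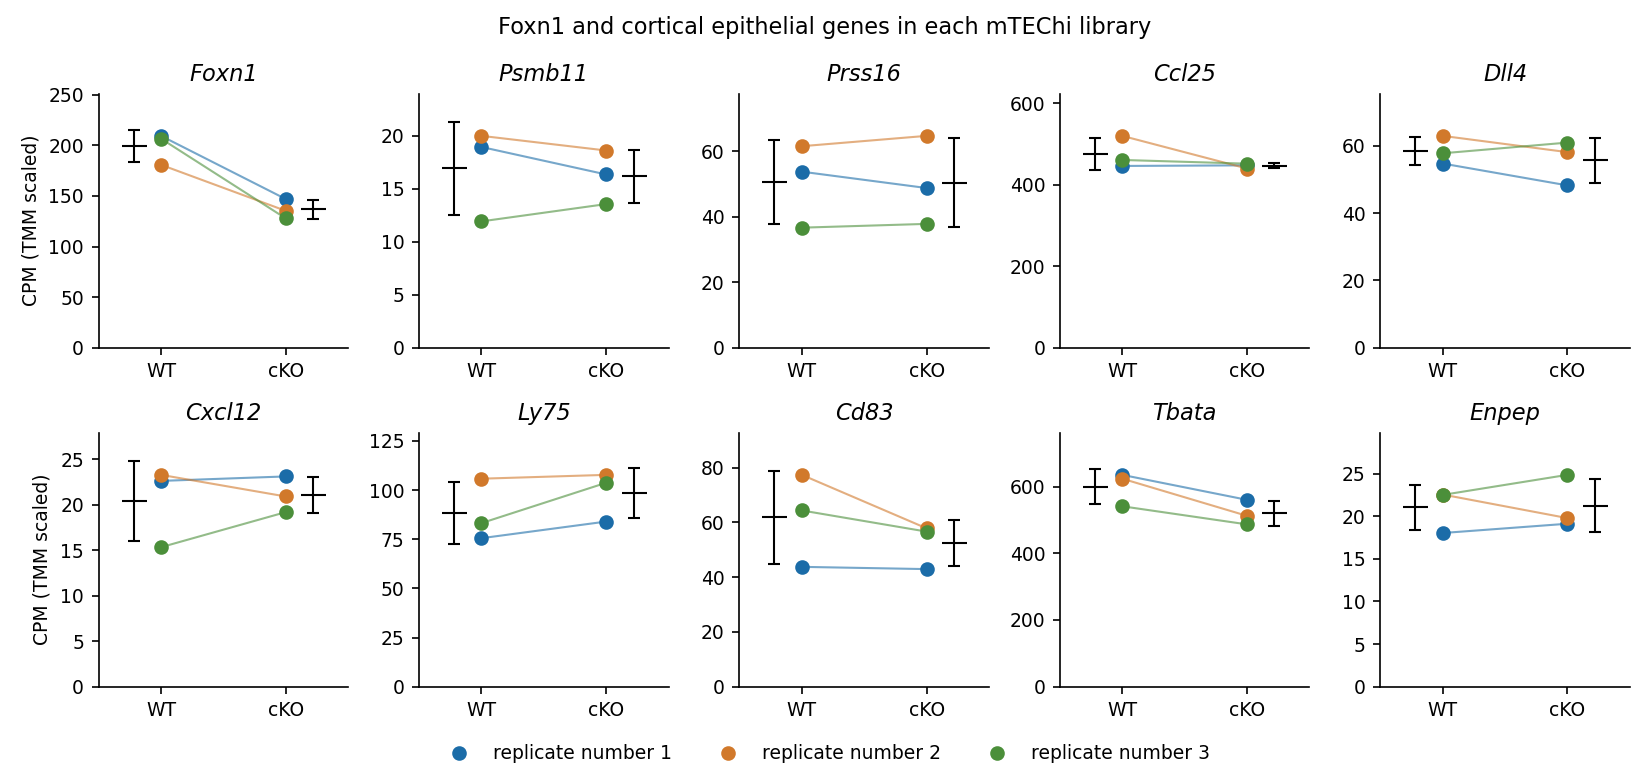
TMM-scaled CPM (y axis, from 0) of the 10 genes in each of the 6 libraries by genotype (x axis); points of 1 colour share a replicate number and are joined, and black bars give the mean ± SD of 3 libraries. Foxn1 is lower in every cKO library (128 to 147 CPM) than in any WT library (181 to 209 CPM), while Prss16 and Psmb11 keep the order of the replicate numbers in both genotypes.

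No other member passed the threshold, and with the block Foxn1 alone of the 10 passed. Of the 10 log2 fold changes 7 were below 0 and 3 above, and their median was −0.07, against −0.0053 over all genes tested. Foxn1 and Tbata, both lower in cKO, had an unadjusted p under 0.05, to be read against 8.51% of all genes in either direction and 4.23% lower. Foxn1 also passed, as the only member, in 6 further fits: upper-quartile scaling, library totals and limma-voom (0.0631% of all genes passed in each), a filter of 1 CPM (0.0766%), no filter (0.345%) and DESeq2 (0.887%). No member passed in the remaining fits, where the shares of all genes were 0.0666% with RLE scaling, 0.0541% on the series table's genes, 0.0210% without robust estimation, 0.00361% on either TPM scale, 0.0237%, 0.0407% and 0.0204% without WT library 1, 2 or 3, and 0.0542%, 0.0237% and 0.0444% without cKO library 1, 2 or 3.

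**Figure D2:**
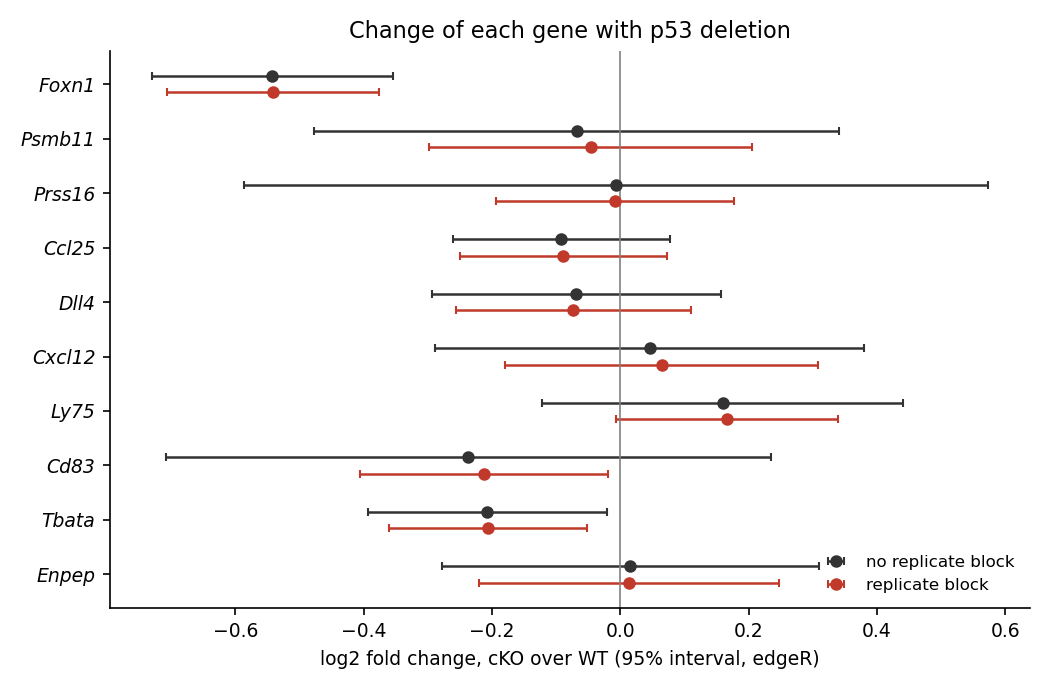
Log2 fold change of cKO over WT (x axis) with its 95% interval for each gene (y axis), from edgeR without the replicate block (black) and with it (red). The intervals of Foxn1 (−0.73 to −0.35 without the block) and of Tbata (−0.39 to −0.02 without it) lie below 0 in both fits, that of Cd83 with the block alone (−0.40 to −0.02), and Foxn1 is the 1 gene that passes the adjusted threshold, with the block.

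The genes of the cortical peptide machinery were measured at nearly equal means in the 2 genotypes. Psmb11 encodes β5t, the catalytic subunit of the thymoproteasome, which cuts the class I peptides used for positive selection of CD8 T cells (ENSMUSG00000072423, chromosome 14, 54621433 to 54629556, plus strand). It had 18.9, 19.97 and 11.9 CPM in WT and 16.3, 18.6 and 13.5 CPM in cKO. Library 3 was lowest in both genotypes and the groups overlapped. Its log2 fold change was −0.07 (SE 0.187, 95% interval −0.48 to 0.34, edgeR adjusted p = 0.960). Prss16 encodes the thymus-specific serine protease, which shapes the class II peptides that select CD4 T cells (ENSMUSG00000006179, chromosome 13, 22002173 to 22009742, minus strand). It had 53.8, 61.6 and 36.7 CPM in WT and 48.8, 64.7 and 37.8 CPM in cKO. The order of libraries 2, 1 and 3, from high to low, was the same in both genotypes. The log2 fold change of Prss16 was −0.0066 (SE 0.245, 95% interval −0.59 to 0.57, adjusted p = 0.997), and with the block its interval narrowed to −0.19 to 0.18. Per length, Psmb11 was a small part of the β5-type proteasome subunits. Psmb5, the constitutive subunit, had 183 ± 9.88 TPM in WT and 169 ± 7.46 TPM in cKO, and Psmb8, the immunoproteasome subunit, 159 ± 10.1 and 163 ± 12.2 TPM (SD, n = 3 each), against 7.97 ± 2.08 and 7.74 ± 1.34 TPM for Psmb11. Psmb11 made up 1.61% to 2.77% of the summed TPM of these subunits in WT libraries and 1.92% to 2.52% in cKO libraries, ranges that overlap. None of the 7 catalytic proteasome genes passed (median log2 fold change −0.07), and Psmb6, with the smallest p, was at −0.19 (SE 0.115, adjusted p = 0.705).

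The ligands that act on incoming progenitors were close between genotypes. Ccl25 encodes the chemokine that draws progenitors through CCR9 (ENSMUSG00000023235, chromosome 8, 4325210 to 4360020, plus strand). It had 446, 520 and 461 CPM in WT and 448, 440 and 452 CPM in cKO, and WT library 2 stood above the other libraries. For Ccl25 the log2 fold change was −0.09 (SE 0.0782, 95% interval −0.26 to 0.08, edgeR adjusted p = 0.808), and 2.74% of its exon bases overlap Elavl1 on the other strand. Dll4 encodes the Notch ligand that commits progenitors to the T lineage (ENSMUSG00000027314, chromosome 2, 119325784 to 119335962, plus strand). It had 54.8, 63.0 and 57.8 CPM in WT and 48.3, 58.2 and 61.0 CPM in cKO. Library 1 was lowest in both genotypes. The fitted change of Dll4 was, in log2, −0.07 (SE 0.104, 95% interval −0.29 to 0.16, adjusted p = 0.906), and 5.56% of its exon bases overlap the antisense gene Gm14207, whose 549 to 746 counts may share reads with it. Cxcl12 encodes the chemokine that retains and guides progenitors through CXCR4 (ENSMUSG00000061353, chromosome 6, 117168535 to 117181367, plus strand). It had 22.6, 23.3 and 15.3 CPM in WT and 23.1, 20.9 and 19.2 CPM in cKO, lowest in library 3 of both genotypes. Cxcl12 had a log2 fold change of 0.05 (SE 0.154, 95% interval −0.29 to 0.38, adjusted p = 0.967).

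The surface markers of cortical cells did not pass either. Ly75 encodes CD205, an endocytic receptor of cortical epithelium and dendritic cells (ENSMUSG00000026980, chromosome 2, 60292103 to 60383303, minus strand). It had 75.5, 106 and 83.2 CPM in WT and 84.0, 108 and 104 CPM in cKO. The groups overlapped, although within each numbered pair the cKO library was the higher one. The log2 fold change of Ly75 was 0.16 (SE 0.129, 95% interval −0.12 to 0.44, edgeR adjusted p = 0.794), and 3.61% of its exon bases overlap the antisense gene Gm13571. Cd83 encodes a membrane protein that stabilises class II molecules on the cell surface and is needed for CD4 T cell selection (ENSMUSG00000015396, chromosome 13, 43784775 to 43803132, plus strand). It had 43.8, 77.4 and 64.4 CPM in WT and 42.9, 57.8 and 56.6 CPM in cKO, lowest in library 1 of both genotypes. For Cd83 the log2 fold change was −0.24 (SE 0.205, 95% interval −0.71 to 0.23, adjusted p = 0.818), and −0.21 (SE 0.0917, adjusted p = 0.364) with the block. Enpep encodes glutamyl aminopeptidase, whose antigen Ly51 (BP-1) is the usual sorting marker of cortical epithelium (ENSMUSG00000028024, chromosome 3, 129269175 to 129332720, minus strand). It had 18.03, 22.6 and 22.5 CPM in WT and 19.1, 19.8 and 24.9 CPM in cKO, with overlapping groups. Enpep had a log2 fold change of 0.0155 (SE 0.136, 95% interval −0.28 to 0.31, adjusted p = 0.990).

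Tbata, also called Spatial, encodes a protein of thymic stroma, brain and testis that restrains proliferation of thymic epithelial cells (ENSMUSG00000020096, chromosome 10, 61171954 to 61188841, plus strand). It had 635, 624 and 541 CPM in WT and 560, 512 and 487 CPM in cKO. The cKO library was the lower one in every numbered pair, but WT library 3 lay below cKO library 1, so the groups overlapped. Tbata had a log2 fold change of −0.21 (SE 0.0859, 95% interval −0.39 to −0.02, edgeR adjusted p = 0.542), and −0.21 (SE 0.0731, adjusted p = 0.248) with the block.

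Levels between genes were compared per length, in the authors' TPM. Tbata was the most abundant member, at 558 ± 54.8 TPM in WT and 491 ± 41.0 TPM in cKO (SD, n = 3 each), rank 221 of the 51810 genes by mean TPM over 6 libraries. Ccl25 followed at 144 ± 8.37 and 138 ± 1.19 TPM, and Foxn1 at 140 ± 14.4 and 97.5 ± 8.06 TPM. Ccl25 was above Foxn1 in 4 of 6 libraries, so their order did not hold beyond the spread. Cd83 (53.9 ± 13.4 TPM in WT) was above Dll4 (34.2 ± 1.53 TPM) in 6 of 6 libraries. Dll4, Ly75 (28.7 ± 4.38 TPM) and Prss16 (27.3 ± 6.74 TPM) overlapped. Enpep (10.1 ± 0.995 TPM), Psmb11 and Cxcl12 (5.63 ± 1.24 TPM) were the lowest. Cxcl12 ranked 14424, above 72.2% of all genes, and Psmb11 ranked 12620. The medullary gene Aire had 771 ± 81.1 TPM in WT. In TPM the genotypes did not overlap for Foxn1 (124 to 152 TPM in WT, 89.3 to 105 TPM in cKO) and, narrowly, for Ccl25 (138.9 to 154 TPM in WT, 136 to 138.7 TPM in cKO), whose CPM ranges overlapped. On the TPM scale the groups did not overlap for 14.2% of the genes tested in either direction, and for 6.06% lower in cKO.

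**Figure D3:**
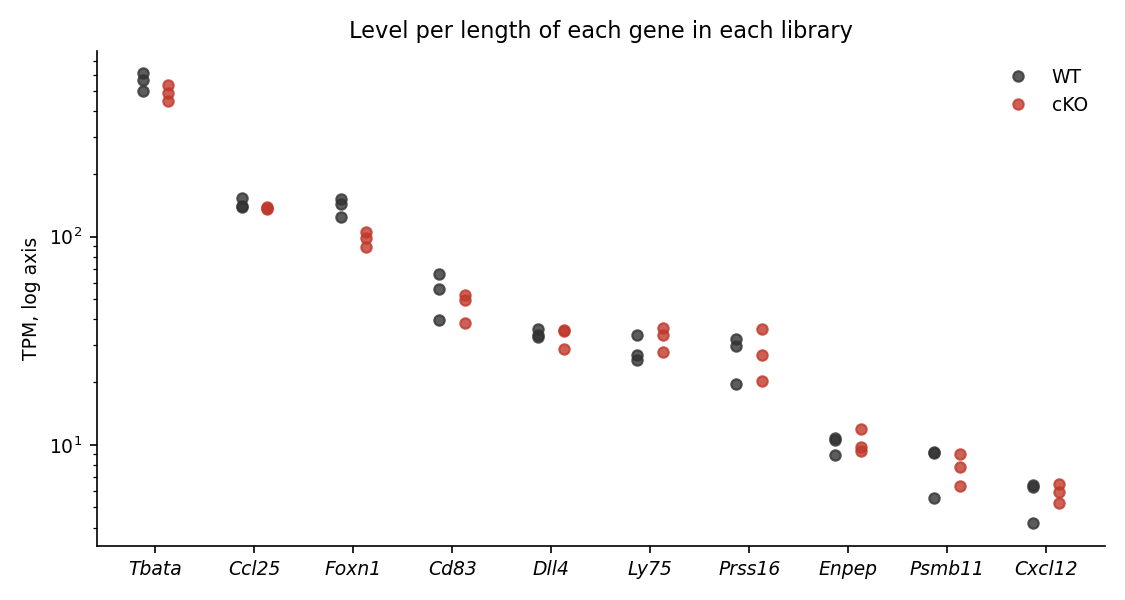
Deposited TPM (y axis, log scale) of each gene (x axis, ordered by mean TPM) in the 3 WT (black) and 3 cKO (red) libraries. Tbata is highest at 450 to 609 TPM and Cxcl12 lowest at 4.20 to 6.51 TPM, and the genotypes are apart for Foxn1 and, narrowly, for Ccl25.

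The replicate number took a larger share of the spread than the genotype in 7 of the 10 members. This is close to the 66.2% of the 15812 genes with a mean of at least 5 CPM for which it held. The spread of log2 CPM over the 6 libraries was divided into the part between genotypes, the part between replicate numbers and the rest. Replicate numbers have 3 levels and genotypes 2, so the replicate part is expected to be the larger one even without any effect. The replicate number took 97.8% of the spread of Prss16, 89.9% of that of Psmb11 and 80.2% of that of Cd83. It took more than 70%, a level chosen after the values were seen, in 7 of the 10 members and in 20.7% of the 15812 genes with a mean of at least 5 CPM. The genotype took 90.2% of the spread of Foxn1, where the replicate number took 5.84%. The median over all those genes was 17.3% for genotype and 41.9% for replicate number. Slc46a2, a transporter of cortical epithelium outside the 10 genes, also followed the replicate number (93.5%), but in another order, with library 1 highest at 95.6 CPM in WT and 108 CPM in cKO.

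The summed markers of some other cell types also differed by replicate number. The summed level of 11 thymocyte markers was 102, 146 and 75.4 CPM in WT libraries 1 to 3 and 88.0, 134 and 78.6 CPM in cKO libraries 1 to 3, the same order of libraries as for Prss16 and Psmb11. All 11 were detected in the files, with Cd3e at 4.44 ± 1.67 CPM in WT and 3.17 ± 1.42 CPM in cKO. The summed level of 11 myeloid and dendritic markers was 578, 767 and 703 CPM in WT and 681, 784 and 971 CPM in cKO, lowest in library 1 of both genotypes, as were Ly75, Cd83, Dll4 and Enpep. Most of that sum was Lyz2 (530 ± 85.8 and 668 ± 144 CPM), and the dendritic genes Xcr1 (5.67 ± 0.535 and 5.72 ± 0.863 CPM) and Itgax (2.65 ± 0.680 and 2.25 ± 0.313 CPM) were low. Not every sum kept its order: the red cell sums were 73.5, 77.6 and 81.4 CPM in WT and 58.7, 49.6 and 72.5 CPM in cKO. The fibroblast and pericyte sums also changed order, with 1013, 948 and 993 CPM in WT and 1135, 1101 and 1237 CPM in cKO. No share over all genes is set beside these orders. Whether such marker RNA came from other cells or from the epithelial cells, and its part in the members' values, was not tested.

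Beside the Foxn1 difference itself, 2 marker sums had groups that did not overlap, as did 14.4% of the single genes tested in either direction. No such share was computed for sums, and no gene of these 2 lists passed the threshold without the block. The 6 red cell markers summed to 73.5 to 81.4 CPM in WT and 49.6 to 72.5 CPM in cKO. The 7 fibroblast and pericyte markers summed to 948 to 1013 CPM in WT and 1101 to 1237 CPM in cKO, mostly from Rgs5 (811 ± 40.9 and 987 ± 53.5 CPM, edgeR adjusted p = 0.2996), with Pdgfra at 1.87 ± 0.530 and 1.83 ± 0.429 CPM. The list as a whole did not rise: its median log2 fold change was −0.03, with 4 genes below 0 and 3 above. Col1a1 went from 23.4 ± 2.72 TPM in WT to 18.6 ± 2.70 TPM in cKO, and Col3a1 from 2.29 ± 0.636 to 1.74 ± 0.287 TPM. The sums of thymocyte, B cell (58.7 to 73.5 CPM in WT and 62.4 to 74.9 CPM in cKO), endothelial (26.2 to 33.8 and 27.8 to 30.6 CPM), myeloid and medullary markers (37395 to 41585 and 37936 to 41006 CPM) overlapped between genotypes. No marker of any list was at 0 in all libraries. Whether this marker RNA came from other cells or from the epithelial cells, and its part in the Foxn1 difference, was not tested.

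**Figure D4:**
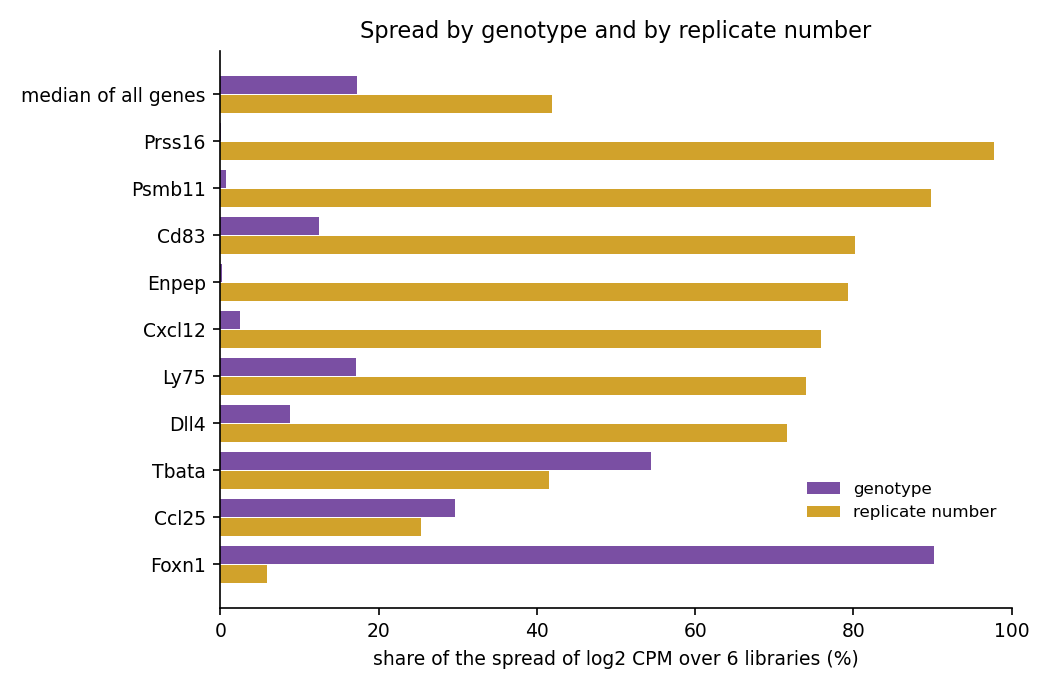
Share of the spread of log2 CPM over 6 libraries (x axis, percent) that lies between genotypes (purple) and between replicate numbers (yellow) for each gene, with the median of 15812 genes at the top. Prss16 and Psmb11 have 97.8% and 89.9% by replicate number, and Foxn1 has 90.2% by genotype.

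Whether the difference of Foxn1 exceeded that of the other members was tested on the difference itself, the log2 CPM of Foxn1 minus that of the other gene in each library. The 2-sided exact permutation test of 3 against 3 libraries cannot go below p = 0.1, so none of the 9 pairs could pass. The value was lower in cKO in all 9 pairs, by −0.70 to −0.33 on the log2 scale, a direction shared because Foxn1 is in every pair. The libraries of the genotypes did not overlap for the pairs with Ccl25, Cxcl12, Tbata and Enpep (exact permutation p = 0.1 each, adjusted p = 0.225 over 9 pairs). They overlapped for the pairs with Psmb11 (exact permutation p = 0.2), Dll4 (p = 0.2), Ly75 (p = 0.2), Prss16 (p = 0.3) and Cd83 (p = 0.5). Within same-numbered libraries the value was lower in cKO in 3 of 3 for each of the 9 pairs of genes. Foxn1 by itself did not overlap between genotypes and was lower in 3 of 3, so these counts carry its own difference. No share for Foxn1 set against all other genes is given, so the counts do not show that Foxn1 differs from these members. It was −0.30, −0.32 and −0.87 against Psmb11, −0.37, −0.49 and −0.74 against Prss16, and −0.48, −0.00059 and −0.51 against Cd83. An exact sign-flip permutation test on 3 numbers cannot go below p = 0.25, so neither layout could reach the threshold. Without WT library 1 the mean difference against Cd83 was −0.064, compared with −0.33 on all libraries.

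Among the other forkhead N genes none passed. Foxn2 was at 0.13 (SE 0.0946, adjusted p = 0.762 by edgeR), Foxn3 at 0.21 (SE 0.102, adjusted p = 0.608) and Foxn4 at −0.08 (SE 0.168, adjusted p = 0.942). Of 8 other cortical epithelial genes none passed either, with a median log2 fold change of 0.06. Il7, the cytokine that sustains early thymocytes, had the smallest p. It averaged 73.9 ± 11.2 CPM in the WT libraries against 95.5 ± 14.7 CPM in the others, which is 0.37 ± 0.129 (SE) on the log2 scale. Its edgeR adjusted p was 0.461, and 0.0534 under the block.

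Foxn1 lies on the chromosome of Trp53, 8.77 Mb from it, so its neighbours were examined. Of 35 genes tested with a base within 250 kb of Foxn1, none passed without or with the block (smallest adjusted p 0.316 and 0.0896). At an unadjusted p under 0.05 there were 4 of the 35, near the 8.51% of all genes. Their median log2 fold change was −0.0090, with 18 below 0 and 17 above. The groups did not overlap for 8 of them, 4 lower and 4 higher in cKO, against 14.4% of all genes. The lowest p was that of Nek8, a kinase gene of the primary cilium, 210 kb downstream (−0.48 ± 0.133 SE on the log2 scale, edgeR adjusted p = 0.316). Close to Nek8 lie Tlcd1 (−0.27, SE 0.0947, edgeR adjusted p = 0.461) and Rpl23a (−0.22, SE 0.0900, edgeR adjusted p = 0.537). Like Nek8, both were lower in cKO without overlap of the groups, whereas the groups overlapped for Traf4 and Rab34 in the same stretch. The genes higher in cKO without overlap were Aldoc, Slc13a2os, Vtn and Tmem97. The nearest gene starts were those of Slc13a2os, 7.93 kb upstream (0.23, SE 0.0968, adjusted p = 0.547), and Slc13a2, 35.7 kb upstream (0.14, SE 0.109, adjusted p = 0.794), both by edgeR.

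**Figure D5:**
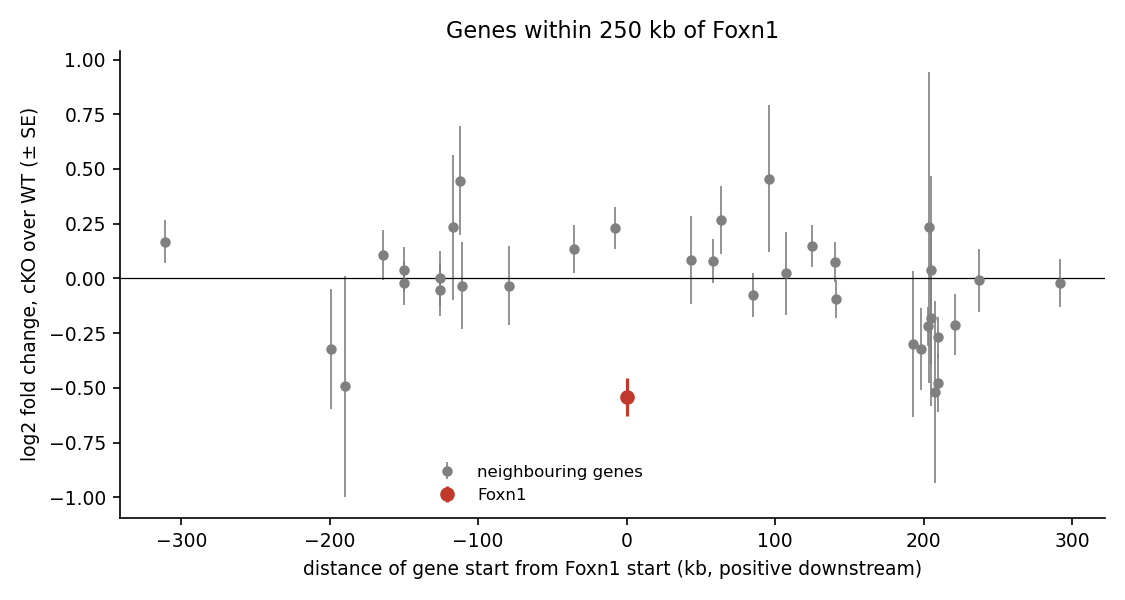
Log2 fold change of cKO over WT ± SE (y axis) of the 35 tested genes near Foxn1 (grey) and of Foxn1 (red) against the distance of the gene start from that of Foxn1 in kb (x axis). Foxn1 lies at −0.54, while the nearest genes on both sides, Slc13a2os (0.23) and Unc119 (0.09), lie above 0. Farther downstream, Nek8 lies at −0.48, Tlcd1 at −0.27 and Rpl23a at −0.22. Of the 35 neighbours, 18 lie below 0 and 17 above.

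The genes whose levels followed Foxn1 most closely over the 6 libraries were, by Pearson's r of log2(CPM + 1) among 12858 genes with a mean of at least 10 CPM, Gm42047 (r = 0.991), Polr2j (0.991), Gm10425 (0.989), Chchd5 (0.988) and Tjap1 (0.983). These are descriptions over 6 libraries that share their genotypes. A split by genotype comes with the choice of these genes, since Foxn1 is itself split by genotype. Of the 5, Gm42047 passed the threshold between genotypes (log2 fold change −1.45, SE 0.148, edgeR adjusted p = 0.00165), as did 0.0596% of all genes tested.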

How the data were processed

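Read counts of 55385 genes in 6 libraries and a series table of 51810 of them were used. The authors deposited raw counts per gene. TopHat2 2.1.1, SAMtools 1.9, Subread 2.0.1 and the build mm10 are listed, without roles, by the submitters' processing notes. Per the file headers, featureCounts 2.0.0 counted exons of Ensembl release 99 by gene, without strand, with reads over several genes counted for each, without pair counting. The series table holds the same counts and TPM that the authors made from them, whose tool is not given in the sources used here. Its counts were equal in all 51810 genes. Its column FragsPerKb, 1 column that names no sample, was not used. The authors' deposited exon length in kilobases is a further column of that table.

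Differential expression was tested in R 4.3.3 with edgeR 4.0.16 (TMM, filterByExpr, robust quasi-likelihood F test), Benjamini-Hochberg adjusted over 28543 genes, threshold 0.05. All 10 members passed the filter on low counts. Log2 fold changes are cKO over WT, SE is the fold change over the square root of F, and intervals are 95%. The replicate number was an added term in the block fit. Same-numbered WT and cKO libraries deviated together from their group means (r = 0.395, 0.201 and 0.252 over 15774 genes), so the numbers were taken as pairs, though the labels do not say what they mark. Libraries of unlike number had r of −0.386 to 0.178, the highest for WT library 2 with cKO library 3, near the 0.201 of number 2. The pairing thus rests on these same data. Spread shares used log2(CPM + 0.5). A floor of 3 counts is 0.0598 to 0.0660 CPM, and floors and depth cover counting error only. The fits were tested on simulated data drawn without an effect of the replicate number, which therefore cannot bear on the gain from the block. Alternatives were DESeq2 1.42.0, limma 3.58.1 (voom, and log2(TPM + 1) or log2(TPM + 0.1)), other scalings and filters, the series table's genes only, and leaving out each library. The members, the lists and the rule for named genes (all 10 members, in other lists those past the threshold or with the smallest p, and the 5 genes most like Foxn1) were chosen with earlier results of these data known. Genes named besides these were chosen after their values were seen. The gene with the smallest p in 1 list is not reported here.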

Additional observations from a re-analysis of the deposited data

How the results depend on the processing

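Foxn1 kept its direction in all 18 other fits and passed the threshold in 7 of them. Its log2 fold change was −0.54 (adjusted p = 0.00242) with the replicate block, −0.54 (2.18e-04) with DESeq2, −0.54 (9.80e-05) without a filter, −0.55 (0.0448) with the filter of 1 CPM in 3 libraries, −0.56 (0.0393) with upper-quartile scaling, −0.56 (0.0470) with library totals only and −0.54 (0.0499) with limma-voom. In each of these 7 fits 1 member passed, Foxn1, against 0 in the edgeR fit without the block. Leaving out 1 library gave Foxn1 values of −0.61 to −0.50 with adjusted p of 0.0555 to 0.338 and 0 members past the threshold, and the fits on log2(TPM + 1) and log2(TPM + 0.1) gave adjusted p of 0.3096 and 0.326. The replicate block changed no call of a member other than Foxn1 and none in the other fixed lists of thymic genes; among the marker lists Hba-a2 passed with it (adjusted p = 0.0221).

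Over all genes, 17 calls became 203 with the replicate block, 180 with DESeq2, 160 without a filter, 6 without robust estimation and 1 on either TPM scale, and 6 to 16 when 1 library was left out (7 without WT library 1, 6 without WT library 3 and 7 without cKO library 2). Members near 0 changed sign. Enpep was at −0.0024 with library totals only, and Prss16 at 0.015 and 0.016 on the TPM scales. With 1 library left out the ranges were −0.27 to 0.067 for Psmb11, −0.23 to 0.16 for Prss16, −0.11 to 0.088 for Enpep, −0.12 to 0.15 for Cxcl12 and −0.14 to 0.027 for Dll4, none past the threshold; the cause was not tested. Cd83 went from −0.24 to −0.43 without WT library 1 and −0.044 without WT library 2, Ly75 from 0.16 to 0.059 and 0.31, and Ccl25 from −0.09 to −0.14 and −0.023, without these same libraries. TPM recomputed over all 55385 genes lowered every level, to 132 from 144 TPM for Ccl25 and to 31.3 from 34.2 TPM for Dll4 in WT, by construction. With 3 libraries a group, the 95% intervals of Prss16, Psmb11 and Cd83 still held changes of up to 0.48 to 0.71 on the log2 scale.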

Other observations

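Transcription factors and signals that act upstream of Foxn1 in thymus development were also measured. None of 12 such genes passed the threshold, with a median log2 fold change of 0.02 and 8 above 0. Trp63, the p53 family member that maintains epithelial progenitors, was at 118 ± 20.4 CPM in WT against 118 ± 14.4 CPM for cKO (SD over 3 libraries), 0.0075 ± 0.124 (SE) on the log2 scale (edgeR adjusted p = 0.993).

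Of 6 genes for receptors of the members' ligands none passed, with a median of −0.0020. Notch3, a receptor of Notch ligands, had the smallest p (log2 fold change 0.23, SE 0.1495, edgeR adjusted p = 0.717). Ccr9, the receptor of CCL25, averaged 16.1 ± 3.27 CPM in WT against 16.7 ± 1.89 CPM for cKO, and Cxcr4, the receptor of CXCL12, had 18.4 ± 4.14 and 17.7 ± 1.58 CPM.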
